A study of Mus musculus with 30 samples.

Results

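The genes described here mark oligodendrocyte precursor cells (OPCs): Pdgfra, Cspg4, Gpr17, C1ql1, Ptprz1, Olig1, Olig2, Lhfpl3, Bcas1 and Neu4. The 10 genes were given by name. All of them were found among the 53278 genes counted in the subventricular zone (SVZ) and the 50508 counted in the striatum, and all 10 passed the filter on low counts in both tissues, as did 16375 genes in the SVZ and 15419 in the striatum.

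OPCs are dividing glial cells spread through the adult brain, and they also arise from stem cells of the SVZ. They divide in response to platelet-derived growth factor, which they sense through Pdgfra, and they carry the NG2 proteoglycan encoded by Cspg4. As they commit to differentiate they switch on Gpr17 and Bcas1, lose Pdgfra and Cspg4, and later express the myelin genes of mature oligodendrocytes, such as Mbp, Mag and Mog.

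The study removed endogenous neural precursor cells (eNPCs) of the SVZ with a viral thymidine kinase driven by a neural enhancer of the Nestin gene (NestinTK), which turns ganciclovir (GCV) into a poison for dividing cells. NestinTK+ mice and NestinTK- wild-type littermates on the C57Bl/6 background, adults of 6 to 8 weeks, received GCV or saline (PBS) for 4 weeks from a pump placed under the skin. The ablated group was NestinTK+GCV+ (5 mice, A1 to A5). The controls were NestinTK-GCV+ (3 mice, G1 to G3), NestinTK-PBS+ (3 mice, P1 to P3) and NestinTK+PBS+ (4 mice, T1 to T4), numbered in the order of the sample records. RNA of both tissues came from the same 15 mice, 1 library per mouse and tissue. Any dividing cell in which the transgene is active is a target of GCV, and whether OPCs carried the kinase was not measured in these libraries. The question put to the data was whether OPC genes moved with the loss of eNPCs, and how they compared with genes of mature oligodendrocytes.

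Library totals in the SVZ were 8.36 to 9.6 M counts in ablated mice and 8.95 to 21.1 M counts in controls. In the striatum they were 2.63 to 3.37 M and 2.78 to 4.69 M counts, so ablated libraries tended to be smaller in both tissues. Among cell-division genes of the SVZ, Top2a was 1.31 CPM on average in ablated mice and 29.2 CPM in controls. CPM are counts scaled to the effective size of the library, per M counts. The neuroblast gene Igfbpl1 was 0.0957 and 13.9 CPM. These 2 genes changed more than their lists did. Median log2 fold changes were -0.96 for stem and transit-amplifying cell markers and -0.87 for neuroblast markers. The former summed to 47.7 to 144 CPM in ablated and 131 to 356 CPM in control mice. Neuroblast markers summed to 601 to 837 CPM and 607 to 1190 CPM. The labels call the SVZ samples neural precursor cells, while the protocol describes dissected tissue, and markers of medium spiny neurons, the main neurons of the striatum, summed to 3780 to 12100 CPM in them. Ttr, the main choroid plexus transcript, took over 1% of counts in the SVZ of the control mice P1, P2 and T1. In the striatum the library of T4 stood apart: its medium spiny neuron markers summed to 4510 CPM against 8960 to 11700 CPM in the others, and its choroid plexus markers to 1440 CPM. Mouse numbers fell into a lower and a higher series: all ablated mice were of the higher series, all NestinTK-PBS+ mice, G1 and T3 of the lower. Library numbers 1 to 10 belonged to GCV mice and later ones to PBS mice in both tissues, so an effect of GCV and one of library order cannot be told apart. The comparison of NestinTK+GCV+ with NestinTK-GCV+ lies within the GCV range.

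In the striatum, 8 of 10 OPC genes had a log2 fold change below 0 (7634 of all 15419 genes did), and most of the changes were small beside those of mature oligodendrocyte genes. The difference between these lists was not tested. Bcas1 departed most, at 72.7 ± 15.6 CPM (SD, n = 5) in ablated mice and 128 ± 43.4 CPM (n = 10) in controls. Olig1 was 147 ± 24.2 CPM against 186 ± 36.3 CPM. For Pdgfra, the growth factor receptor, the means were 22.6 ± 5.65 and 19.7 ± 5.55 CPM, and for Cspg4 they were 12.9 ± 3.10 and 12.8 ± 3.48 CPM. The median log2 fold change of the 10 genes was -0.17, and that of all genes tested was 0.0035. None of the 10 was called at the threshold of the study, a nominal p of at most 0.01 and a change of 2-fold (0.694% of all genes were), and none passed an adjusted p under 0.05 in edgeR's quasi-likelihood test (0.182% of all genes did). At an unadjusted p under 0.05, 2 were lower (5.31% of all genes) and none was higher (5.18%). Fewer cells of a type and less RNA per cell cannot be told apart in bulk tissue.

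**Figure D1:**
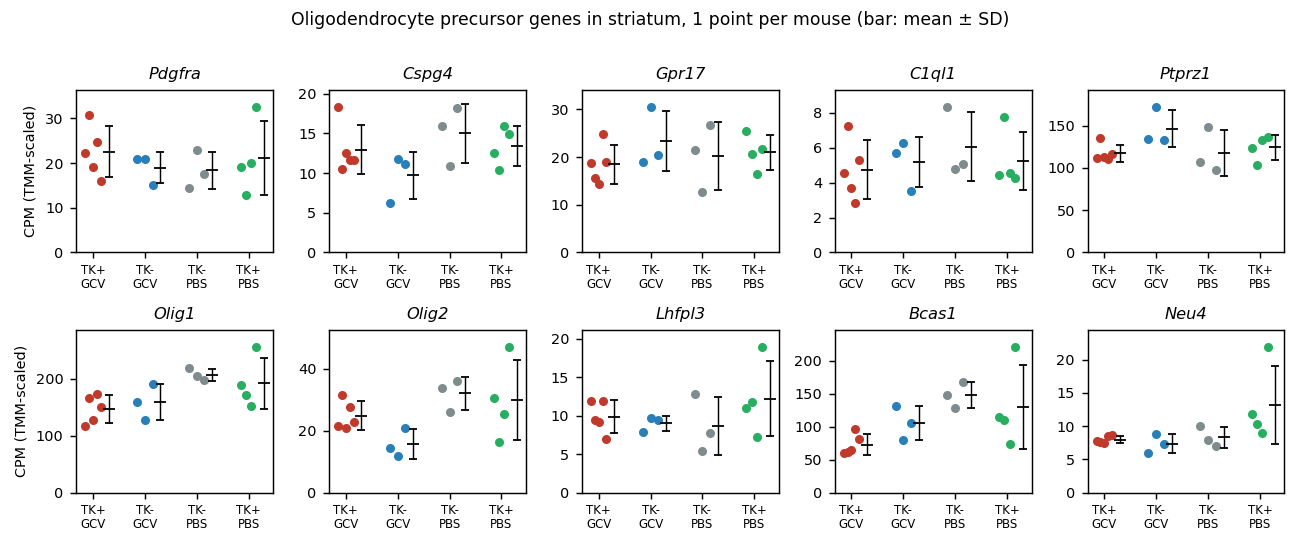
Level of each OPC gene in the striatum, in CPM on a linear axis, with 1 point per mouse in 4 groups of genotype and treatment and black bars for mean ± SD. The NestinTK+GCV+ mice lie at 59.8 to 95.8 CPM of Bcas1, below 8 of the 10 control mice at their highest point, while the groups overlap widely for Pdgfra, Cspg4 and Lhfpl3.

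Pdgfra (chr5:75152292-75198215, plus strand, GRCm38) and Cspg4 (chr9:56865033-56899870, plus strand) are the usual markers of the precursor stage. Pdgfra was 22.2, 30.8, 19.2, 24.7 and 15.9 CPM in the striatum of A1 to A5. It was 20.9, 21.0 and 15.1 CPM in G1 to G3 and 14.5, 22.9 and 17.7 CPM in P1 to P3. In T1 to T4 it was 19.1, 12.9, 20.0 and 32.5 CPM. The lowest and the highest value both came from NestinTK+PBS+ mice, and the ablated mice lay between them. Its log2 fold change was 0.20 (SE 0.197, 95% interval -0.21 to 0.60, edgeR adjusted p = 0.782). An exact two-sided permutation test over all 3003 divisions of the 15 mice gave p = 0.322 (0.516 after adjustment over 8 such tests, run for Pdgfra, Gpr17, Bcas1 and Mog in both tissues). The counts behind these values were 35 to 122 per library.

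Cspg4 was 18.3, 10.5, 12.6, 11.6 and 11.6 CPM in A1 to A5, and 6.25 to 18.1 CPM in the 10 controls with a median of 12.2 CPM. The NestinTK-GCV+ mice held the lowest value, and A1 alone exceeded all controls. The log2 fold change was 0.011 (SE 0.218, 95% interval -0.44 to 0.46, edgeR adjusted p = 0.993). These values came from 23 to 75 counts per library, and changes within this interval were not detectable at this depth. Pdgfra is also expressed by fibroblasts and Cspg4 by pericytes. Summed pericyte markers were 113 to 191 CPM in ablated mice and 92.2 to 240 CPM in controls, and fibroblast markers 50.7 to 142 CPM and 50.4 to 103 CPM. Their part in the levels of Pdgfra and Cspg4 was not tested.

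Olig1 and Olig2 encode transcription factors that act from the precursor to the mature stage and lie side by side on the plus strand of chromosome 16 in build GRCm38 (Olig2 at chr16:91225457-91228677, Olig1 at chr16:91269772-91271933), 41095 bases apart. Olig1 was 117, 165, 127, 174 and 151 CPM in the striatum of A1 to A5. It was 159, 127 and 190.1 CPM in the NestinTK-GCV+ mice, 218, 204 and 198 CPM in the NestinTK-PBS+ mice, and 189, 172, 152 and 255 CPM in the NestinTK+PBS+ mice. All 5 ablated mice lay below all 3 NestinTK-PBS+ mice and overlapped the other 2 control groups. The log2 fold change of Olig1 was -0.34 (SE 0.140, unadjusted p = 0.0216, edgeR adjusted p = 0.377). Without A1 or without A3 the unadjusted p was 0.0819 and 0.0663, and with library totals in place of TMM scaling it was 0.0556. When NestinTK-GCV+ mice alone served as controls, the log2 fold change of Olig1 was -0.14 (unadjusted p = 0.376, edgeR adjusted p = 0.655).

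Olig2 followed another pattern. It was 21.5, 31.5, 20.7, 27.5 and 22.9 CPM in A1 to A5. It was 14.4, 11.8 and 21.0 CPM in the NestinTK-GCV+ mice, 33.8, 26.1 and 36.0 CPM in the NestinTK-PBS+ mice, and 30.7, 16.2, 25.2 and 46.9 CPM in the NestinTK+PBS+ mice. The NestinTK-GCV+ mice lay below the NestinTK-PBS+ mice without overlap, and the ablated mice overlapped both of these groups. Against pooled controls the log2 fold change was -0.08 (SE 0.248, edgeR adjusted p = 0.946). When NestinTK-GCV+ mice alone served as controls it was 0.63 (SE 0.228, unadjusted p = 0.0107, edgeR adjusted p = 0.0948), so the direction turned with the choice of controls.

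Ptprz1, C1ql1 and Lhfpl3 encode cell-surface and secreted proteins of the precursor stage. Ptprz1 is a receptor-type phosphatase that astrocytes also express. It was 112, 135, 113, 111 and 117 CPM in A1 to A5 and 97.2 to 172 CPM in the controls, with a log2 fold change of -0.13 (SE 0.123, edgeR adjusted p = 0.750). C1ql1, a secreted C1q-like protein, was 2.83 to 7.25 CPM in ablated mice and 3.54 to 8.33 CPM in controls, from 10 to 35 counts per library. Lhfpl3, a membrane protein, was 6.97 to 12.0 CPM in ablated mice and 5.45 to 18.9 CPM in controls, from 21 to 71 counts. The ranges of ablated and control mice overlapped for all 3 genes. The log2 fold changes were -0.21 (SE 0.287) for C1ql1 and -0.03 (SE 0.252) for Lhfpl3, with edgeR adjusted p-values of 0.858 and 0.980.

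Gpr17, Bcas1 and Neu4 mark precursors that have begun to differentiate. Gpr17, a G-protein-coupled receptor, was 18.7, 15.6, 14.4, 24.9 and 18.9 CPM in A1 to A5. In the controls it was 12.6 to 30.5 CPM, with a median of 21.0 CPM. The groups overlapped, and the log2 fold change was -0.21 (SE 0.190, edgeR adjusted p = 0.747). The exact permutation test of Gpr17 gave p = 0.292 (adjusted over the 8 tests, 0.516).

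Bcas1 (chr2:170346991-170427845, minus strand, GRCm38) encodes a protein of oligodendrocytes that are starting to make myelin, and its RNA persists at the mature stage. It was 59.8, 61.6, 64.3, 95.8 and 82.0 CPM in A1 to A5. It was 131, 79.2 and 105 CPM in the NestinTK-GCV+ mice and 148, 129.0 and 167 CPM in the NestinTK-PBS+ mice. In the NestinTK+PBS+ mice it was 115, 110.2, 73.5 and 221 CPM. The 3 lowest of all 15 values came from ablated mice, and only G2 and T3 among the controls lay below A4. The log2 fold change was -0.81 (SE 0.204, 95% interval -1.23 to -0.39, unadjusted p = 5.4e-04, edgeR adjusted p = 0.0971). The exact permutation test gave p = 0.00599 (adjusted over the 8 tests, 0.048). The adjustment over 8 tests does not cover the choice of these genes, and the test pooled all 3 control groups. Leaving out each mouse in turn kept the log2 fold change between -0.93 (without A4) and -0.69 (without T4, the library that stood apart), with unadjusted p-values of 1.1e-04 to 0.0029. After adjustment over all genes the call depended on the mice and the tool: the adjusted p was 0.0367 to 0.322 over the 15 omissions, under 0.05 without G2. It was also 0.0346 with no filter on low counts and 0.0194 in DESeq2. The deposited counts do not state a strand setting. Exons of Bcas1 share 474 bases with antisense genes, whose reads cannot be told apart without a strand setting. Exons of other members overlap other genes too: Pdgfra by 652 bases, Lhfpl3 by 567, Gpr17 by 188 and Olig1 by 157.

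Neu4, a sialidase that rises as precursors differentiate, was 7.39 to 8.63 CPM in A1 to A5 and 5.98 to 21.9 CPM in controls. The ablated mice were tightly grouped, and the highest control value was that of T4, next to 11.8 CPM in T1. The log2 fold change was -0.32 (SE 0.264, edgeR adjusted p = 0.722) with T4 and -0.11 without it. With the series of mouse numbers as a covariate it was -0.59 (SE 0.277, unadjusted p = 0.0458, edgeR adjusted p = 0.384).

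Genes of mature oligodendrocytes were lower over a broader front. All 26 genes of that list had a log2 fold change below 0 in the striatum, with a median of -0.64. At an unadjusted p under 0.05, 20 of 26 were lower (5.31% of all genes) and none was higher (5.18%). Of all genes, 0.182% passed an adjusted p under 0.05 in either direction. At an adjusted p under 0.05 in edgeR 5 fell: Mag, a myelin adhesion protein (-0.91, SE 0.155, adjusted p = 0.0117), the iron carrier Trf (-0.88, SE 0.148, adjusted p = 0.0117), the carbonic anhydrase Car2 (-0.68, SE 0.128, adjusted p = 0.0331), the myelin proteolipid Mal (-0.61, SE 0.116, adjusted p = 0.0366) and the cytoskeletal protein Ermn (-0.77, SE 0.152, adjusted p = 0.0381). This count of 5 rested on single mice: it was 0 without any one of A1, A2, A3 or A4, 2 without P2 or without T1, 10 without T4 and 12 without G2. It was 14 with DESeq2, 9 with no filter on low counts, 11 when NestinTK-GCV+ mice alone served as controls, and 0 when NestinTK+PBS+ mice alone did or with the mature level as a covariate. The count at an unadjusted p was 19 to 24 over the omissions of single mice. Trf shares 2108 exon bases with an overlapping gene on the same strand, so its counts are uncertain.

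Values of single mice show the size of this difference. Mag was 146, 153, 172, 183 and 269.9 CPM in A1 to A5, and 229 to 475 CPM in the controls. Ermn was 51.4 to 64.3 CPM in ablated and 72.2 to 146 CPM in control mice, with no overlap. Cnp, an enzyme of the myelin sheath, was 139 to 155.3 CPM against 156.2 to 296 CPM. It was also without overlap, but A4 and G2 nearly met. In all, 5 of 26 mature genes had every ablated mouse below every control, as had 39 of all 15419 genes. Mbp, a major myelin protein, was 515 to 659 CPM against 622 to 1513 CPM (log2 fold change -0.66, SE 0.161, edgeR adjusted p = 0.0899). The myelin genes Mog (-0.63, SE 0.216, edgeR adjusted p = 0.280) and Mobp (-0.60, SE 0.138, edgeR adjusted p = 0.0722) had changes of like size. For Opalin the value was -0.52 (SE 0.263, edgeR adjusted p = 0.491). The exact permutation test of Mog gave p = 0.0406 (adjusted over the 8 tests, 0.163).

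**Figure D2:**
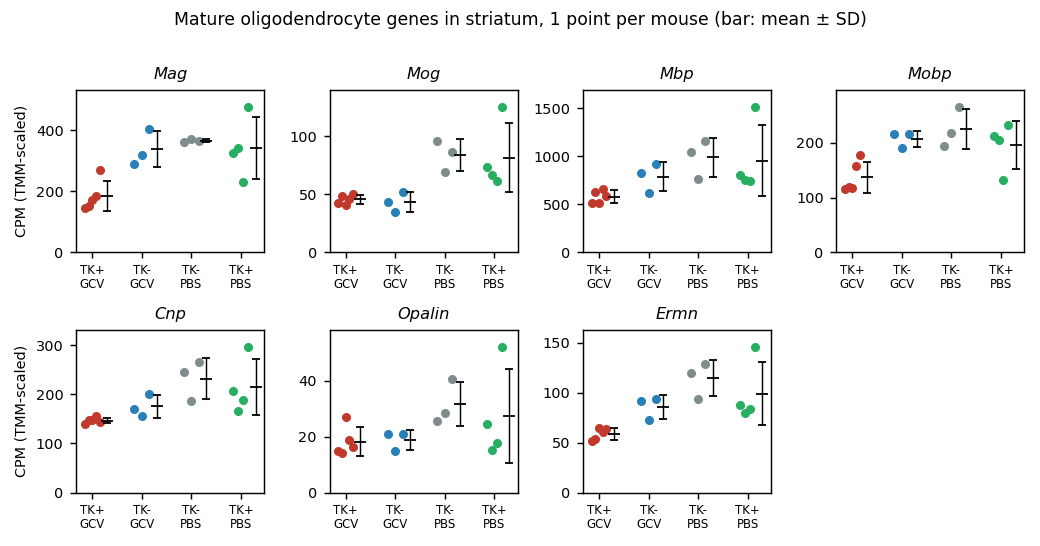
Level of 7 mature oligodendrocyte genes in the striatum, in CPM on a linear axis, with 1 point per mouse in 4 groups and black bars for mean ± SD. Ablated and control mice are apart for Ermn and, narrowly, for Cnp, while for Mog the NestinTK-GCV+ mice lie with the NestinTK+GCV+ mice.

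**Figure D3:**
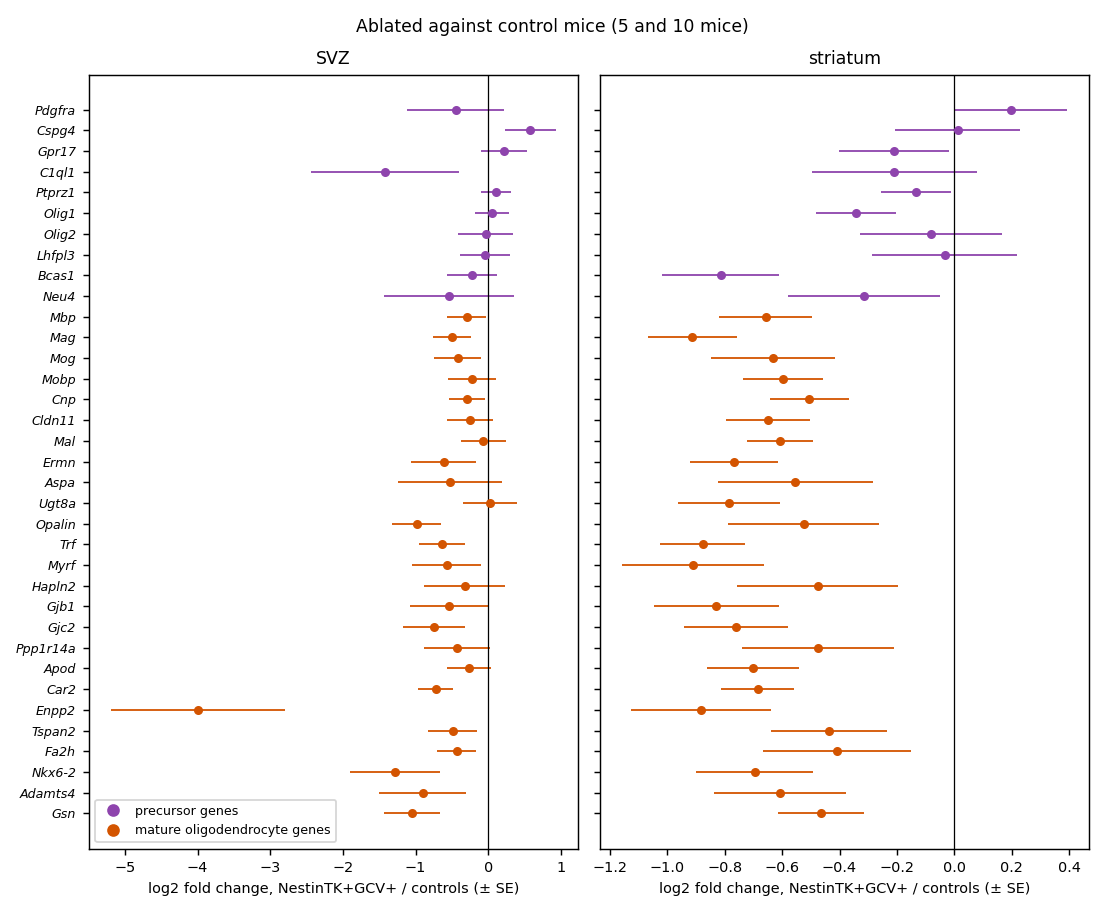
Log2 fold change of NestinTK+GCV+ against pooled controls, with bars of ± 1 SE, for the 10 OPC genes and 25 of the 26 mature oligodendrocyte genes in the SVZ and the striatum; the 2 panels have different horizontal scales. In the striatum the mature genes shown all lie below 0 (median of the whole list -0.64), and the OPC genes have a median of -0.17.

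Mouse by mouse, the mean log2 CPM of the 10 OPC genes in the striatum was 4.45 to 4.72 in ablated and 4.52 to 5.30 in control mice. The mean of the 26 mature genes was 5.77 to 6.08 in ablated and 6.02 to 7.23 in control mice. The mature mean exceeded the OPC mean by 1.25 to 1.52 in ablated mice and by 1.35 to 1.99 in controls. G2, the control with the smallest distance, and A5, the ablated mouse with the largest, were the mice in which these ranges overlapped. T4 had the highest level of both lists.

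**Figure D4:**
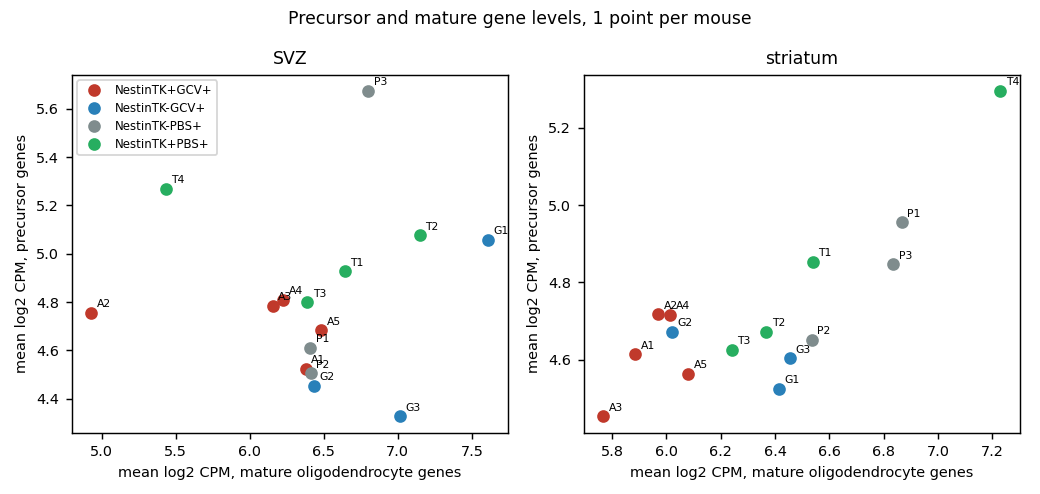
Mean log2 CPM of the 10 OPC genes (vertical) against the 26 mature oligodendrocyte genes (horizontal), 1 point per mouse, for the SVZ and the striatum. In the striatum the ablated mice lie at the left, at 5.77 to 6.08 of the mature mean, with the control G2 among them, and T4 lies alone at the upper right.

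When each library was scaled to its mature oligodendrocyte genes instead of to all genes, the OPC genes had a median log2 fold change of 0.39. Pdgfra (0.80, SE 0.230, edgeR adjusted p = 0.0105), Cspg4 (0.63, SE 0.251, edgeR adjusted p = 0.0457) and Olig2 (0.59, SE 0.211, edgeR adjusted p = 0.0287) were higher at an adjusted p under 0.05. That was 3 of 10, whereas 37.8% of all genes tested were higher under the same scaling, with a median of 0.58. The share of OPC genes was no larger than that of all genes. The count was 1 without A2, A3 or A4 and 6 without G2. Over all 15 omissions of a mouse the edgeR adjusted p of Cspg4 was 0.0228 to 0.182, and its call was lost in 11 of them. The call of Cspg4 was also lost with a shorter list of 8 mature genes for the scaling (edgeR adjusted p = 0.0528). Without A1 the value of Cspg4 was 0.46 (edgeR adjusted p = 0.182). Bcas1 was at -0.16 on this scale (SE 0.180, edgeR adjusted p = 0.462), Olig1 at 0.28, Gpr17 at 0.35 and Neu4 at 0.33.

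The 4 groups were then compared in pairs, with the spread shared over all of them. Several of these comparisons share a group and are not independent. Between NestinTK+GCV+ and NestinTK+PBS+ mice, which differ in GCV and in library order, 3 OPC genes were lower at an unadjusted p under 0.05 and none was higher (10.1% of all genes passed in either direction). These were Bcas1 (-0.83, SE 0.224, edgeR adjusted p = 0.138), Olig1 (-0.39, SE 0.155, edgeR adjusted p = 0.372) and Neu4 (-0.73, SE 0.275, edgeR adjusted p = 0.332). In the same comparison 24 of 26 mature genes were lower, with a median of -0.67.

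Between NestinTK+GCV+ and NestinTK-GCV+ mice, which differ in genotype and lie within one range of library numbers, Bcas1 (-0.53, SE 0.242, edgeR adjusted p = 0.249) and Ptprz1 (-0.32, SE 0.150, edgeR adjusted p = 0.268) were lower and Olig2 (0.66, SE 0.273, edgeR adjusted p = 0.198) was higher at an unadjusted p under 0.05, where 17.7% of all genes passed. Of the mature genes 13 of 26 were lower, with a median of -0.44. Mag was at -0.87 (SE 0.193, edgeR adjusted p = 0.0165) and Mog at 0.08 (SE 0.204). Mag fell here, while the groups overlapped for Mog.

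GCV itself was compared with PBS in NestinTK- mice, which lack the kinase. Olig2 was lower, at -1.02 (SE 0.294, unadjusted p = 0.00197, edgeR adjusted p = 0.0673), and was the 1 OPC gene that passed the threshold of the study in any of these comparisons (2.46% of all genes passed it here). No other OPC gene passed an unadjusted p under 0.05, which 16.1% of all genes did. The values of Bcas1 and Olig1 were -0.49 (SE 0.269) and -0.38 (SE 0.188). Of the mature genes 9 of 26 were lower, with a median of -0.40, among them Mog (-0.95, SE 0.222, edgeR adjusted p = 0.0275). GCV and library number cannot be told apart here. The number series differed too: all NestinTK-PBS+ mice were of the lower series, and of the NestinTK-GCV+ mice G1 alone was.

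Between NestinTK+PBS+ and NestinTK-PBS+ mice, which differ in the kinase, Neu4 was higher in the former (0.67, SE 0.310, unadjusted p = 0.0396, edgeR adjusted p = 0.772), with 6.41% of all genes passing. All NestinTK-PBS+ mice were of the lower number series, and of the NestinTK+PBS+ mice T3 alone was. Genotype and number series can therefore hardly be told apart here. The library of T4 gave the highest Neu4 value of the NestinTK+PBS+ mice. None of the 26 mature genes passed, and their median was -0.11. The interaction of genotype and treatment, which asks whether GCV acted differently in NestinTK+ mice, gave no OPC gene at an unadjusted p under 0.05 (15.1% of all genes) and 4 mature genes. For Bcas1 the interaction was -0.34 (SE 0.350) and for Olig2 0.75 (SE 0.379, unadjusted p = 0.0589, edgeR adjusted p = 0.357). Without T4, Olig2 reached 1.05 (unadjusted p = 0.00414, edgeR adjusted p = 0.0828) and the value of Bcas1 was 0.05.

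Other genes of the lineage were read from lists. Of all genes in the striatum, 5.31% were lower and 5.18% higher at an unadjusted p under 0.05. Of 18 further precursor genes in the striatum, 1 was lower and none higher at an unadjusted p under 0.05: Sox10, a transcription factor of the whole lineage (-0.50, SE 0.233, edgeR adjusted p = 0.447). Of 10 genes tested for committed precursors and newly formed oligodendrocytes, 1 was lower, Nfasc, an adhesion protein of axon and glia (-0.43, SE 0.115, edgeR adjusted p = 0.126). Of 12 mitogens and their receptors, 2 were lower, Fgf1 (-0.48, SE 0.196, edgeR adjusted p = 0.377) and Fgfr2 (-0.49, SE 0.227, edgeR adjusted p = 0.454). Pdgfa, the ligand of Pdgfra, was 69.7 ± 5.94 CPM in ablated and 75.1 ± 19.4 CPM in control mice. Of 10 inhibitors of differentiation, 1 was lower, Id2 (-0.34, SE 0.132, edgeR adjusted p = 0.349). The medians of these lists were -0.14, -0.15, -0.007 and -0.06.

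Markers of other cell types were read in the same way in the striatum. At an unadjusted p under 0.05, 4 of 10 astrocyte markers were lower and 8 of 10 lay below 0, among them Gfap (-1.57, SE 0.367, edgeR adjusted p = 0.0733) and Aqp4 (-0.60, SE 0.228, edgeR adjusted p = 0.346), while the summed level of the list was 4270 to 5030 CPM in ablated and 4700 to 5590 CPM in control mice. For microglia and for stem and transit-amplifying cells 1 gene each was lower, C1qa and Top2a. Medium spiny neuron markers had 1 lower and 1 higher gene of 10, Adora2a and Pdyn. Interneuron, choroid plexus and neuroblast lists had 1 lower gene each, Pvalb, Ttr and Igfbpl1, and fibroblast markers 1 higher, Col1a2. Of all genes, 5.31% were lower and 5.18% higher at this threshold. T4 held the highest sum of interneuron markers, 754 CPM against a control median of 328 CPM, and of choroid plexus markers, 1440 CPM. Whether the differences of Pvalb and Ttr rest on T4 was not tested. No pericyte, endothelial or ependymal marker passed. Their part in the levels of the OPC genes was not tested.

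Over the 15 striatal libraries, the genes whose log2 CPM ran most like the mean of the 10 OPC genes, of 9408 compared, were Ptprd (r = 0.88), Mb21d2 (0.874), Fign (0.87), Gprc5b (0.864) and Paqr8 (0.864). These correlations share the same libraries and the high values of T4.

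In the SVZ, no OPC gene was told apart between ablated and control mice, and the spread between mice was wide. None of the 10 was called at the threshold of the study (1.59% of all genes were) or at an adjusted p under 0.05 in edgeR (0.00611% were, 1 gene). At an unadjusted p under 0.05 none was lower (6.2% of all genes) and none was higher (3.58%). Limma-voom gave 1 higher at an unadjusted p, Cspg4. The median log2 fold change was -0.04, against -0.03 for all genes tested. The common biological coefficient of variation was 0.939 in the SVZ and 0.251 in the striatum, so only larger differences were detectable there.

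**Figure D5:**
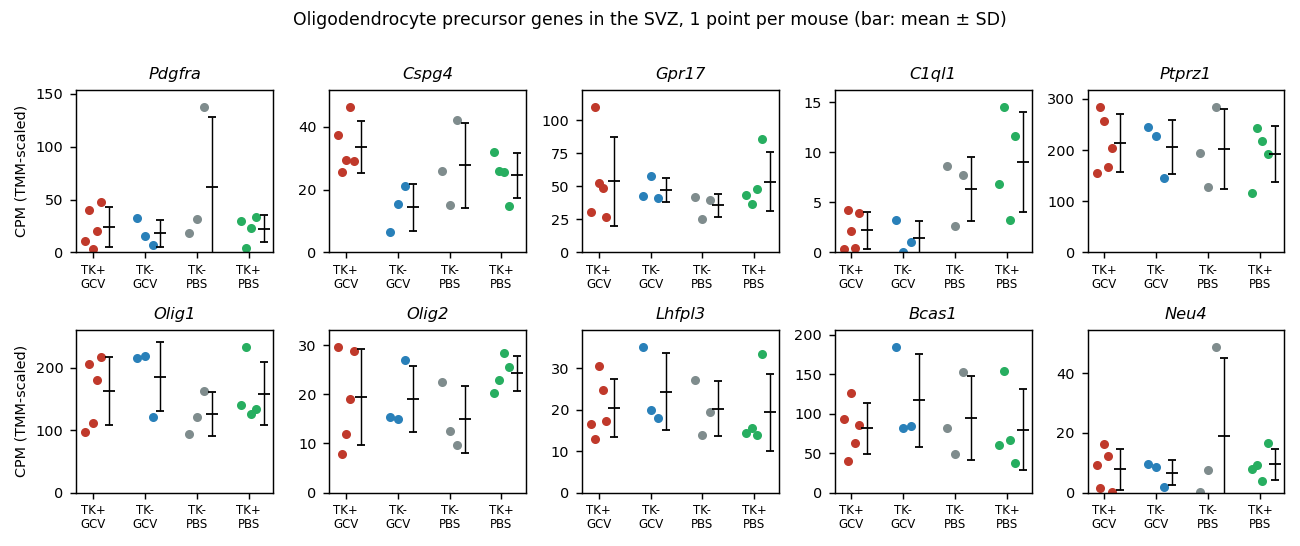
Level of each OPC gene in the SVZ, in CPM on a linear axis, with 1 point per mouse in 4 groups and black bars for mean ± SD. The ablated mice overlap the pooled controls for all 10 genes, though for Cspg4 they lie above the NestinTK-GCV+ mice, and P3 holds the highest value of Pdgfra (138 CPM) and Neu4 (48.8 CPM).

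Pdgfra shows the spread. It was 10.3, 40.5, 3.11, 19.9 and 47.4 CPM in the SVZ of A1 to A5. It was 32.3, 15.3 and 6.60 CPM in the NestinTK-GCV+ mice, 18.0, 31.4 and 138 CPM in the NestinTK-PBS+ mice, and 29.4, 4.36, 22.7 and 33.8 CPM in the NestinTK+PBS+ mice. Low and high values occurred in ablated and control mice alike. The log2 fold change was -0.45 (SE 0.667, 95% interval -1.84 to 0.94, edgeR adjusted p = 0.904), and without P3 it was 0.18. The exact permutation test gave p = 0.615 (adjusted over the 8 tests, 0.763).

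Cspg4 was 37.5, 25.4, 29.3, 46.3 and 29.2 CPM in A1 to A5. It was 6.49, 15.3 and 21.3 CPM in the NestinTK-GCV+ mice, 25.9, 15.1 and 42.1 CPM in the NestinTK-PBS+ mice, and 31.9, 25.8, 25.6 and 14.8 CPM in the NestinTK+PBS+ mice. All ablated mice lay above all NestinTK-GCV+ mice and overlapped the others. Against pooled controls the log2 fold change was 0.58 (SE 0.349, edgeR adjusted p = 0.627), with an unadjusted p of 0.111, or 0.0416 without P3. Against the NestinTK-GCV+ mice in the fit of 4 groups it was 1.22 (SE 0.483, unadjusted p = 0.0208, edgeR adjusted p = 0.667). Summed pericyte markers of the SVZ were 108 to 225 CPM in ablated and 94.2 to 161 CPM in control mice, and their part in this was not tested.

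The remaining genes of the SVZ lay close to 0 or were sparse. Ptprz1 (0.10, SE 0.209), Olig1 (0.05, SE 0.235), Olig2 (-0.03, SE 0.380) and Lhfpl3 (-0.05, SE 0.345) had values near 0. Gpr17 was 30.6, 110.0, 52.8, 48.6 and 26.6 CPM in A1 to A5 and 25.5 to 86.1 CPM in controls (0.22, SE 0.311). Without A2, its highest value, the log2 fold change of Gpr17 was -0.22. Bcas1, the gene that was lower in the striatum, was 92.9, 39.9, 125, 63.0 and 86.1 CPM in A1 to A5 and 37.5 to 184 CPM in controls (-0.22, SE 0.346, edgeR adjusted p = 0.911). The difference between the tissues was not tested, since the libraries were made with different kits. C1ql1 ranged from 0 to 193 counts (-1.42, SE 1.02, edgeR adjusted p = 0.710) and Neu4 from 2 to 438 counts (-0.54, SE 0.895, edgeR adjusted p = 0.918). The 1 library with no count of C1ql1 was that of G2.

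Mature oligodendrocyte genes of the SVZ, none of which passed an adjusted p under 0.05 in edgeR, had a median log2 fold change of -0.50, and 25 of 26 lay below 0. The median was -0.28 without A2, whose summed levels of mature genes (3410 CPM) and of medium spiny neuron markers (3780 CPM) were the lowest of all SVZ libraries. In the fit of 4 groups it was -0.24 against NestinTK+PBS+ mice. At an unadjusted p under 0.05, 4 were lower: Opalin (-0.99, SE 0.339, edgeR adjusted p = 0.387), Car2 (-0.72, SE 0.238, edgeR adjusted p = 0.373), Gsn (-1.05, SE 0.389, edgeR adjusted p = 0.387) and Enpp2 (-3.99, SE 1.20, edgeR adjusted p = 0.347), which choroid plexus also expresses. The count was 7 without A5 or without T4. Of all genes, 6.2% were lower at this threshold. Choroid plexus markers were lower for 8 of 8 genes, with summed levels of 18.5 to 244 CPM in ablated and 15.6 to 103000 CPM in control mice. Without P1, P2 and T1, whose Ttr was over 1% of counts, the medians were -0.64 for the mature genes and -0.10 for the OPC genes, with 6 mature genes lower. Mean log2 CPM of the OPC genes was 4.52 to 4.81 in ablated and 4.33 to 5.67 in control mice, and of the mature genes 4.93 to 6.48 and 5.43 to 7.61.

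Scaled to mature genes, the SVZ gave no OPC gene at an adjusted p under 0.05, as 0% of all genes passed. The values of Cspg4 (1.15), Ptprz1 (0.86) and Olig1 (0.82) had unadjusted p-values of 0.0197, 0.0368 and 0.0398 in edgeR, and edgeR adjusted p-values of 0.231, 0.259 and 0.261. At that unadjusted threshold 15.3% of all genes were higher on this scale. Without A2, the ablated mouse with the lowest mature level, Ptprz1 was at 0.24, Olig1 at 0.22 and the median of all genes at 0.17, and neither gene passed. Without A2 the value of Cspg4 was 0.92 (unadjusted p = 0.0626, edgeR adjusted p = 0.710). With all mice, the median of all genes was 0.56 and that of the OPC genes 0.42.

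In the pairs of groups, no OPC gene of the SVZ passed an unadjusted p under 0.05 between NestinTK+GCV+ and NestinTK+PBS+ mice (7.13% of all genes), and Cspg4 alone did between NestinTK+GCV+ and NestinTK-GCV+ mice (7.44%). None did between NestinTK-GCV+ and NestinTK-PBS+ mice (7.65%), between NestinTK+PBS+ and NestinTK-PBS+ mice (2.76%) or in the interaction (5.06%). Mature genes were lower in 12 of 26 cases between NestinTK+GCV+ and NestinTK-GCV+ mice, with a median of -0.91. GCV against PBS in NestinTK- mice had the opposite sign for this list, at a median of 0.63 with 5 genes higher and 1 lower.

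Of the lineage lists in the SVZ, 2 of 18 further precursor genes were higher at an unadjusted p under 0.05, Luzp2 (0.74, SE 0.272, edgeR adjusted p = 0.387) and Xylt1 (0.79, SE 0.325, edgeR adjusted p = 0.430), and none was lower. Of all genes, 3.58% were higher and 6.2% lower at this threshold. None of 10 committed precursor genes passed. Of 14 mitogens and receptors, Fgfr2 was lower (-0.66, SE 0.310, edgeR adjusted p = 0.500), and of 10 inhibitors of differentiation Hes1, a Notch target, was lower (-2.43, SE 0.755, edgeR adjusted p = 0.361). Stem and transit-amplifying cell markers were lower for 4 of 10 genes and neuroblast markers for 5 of 10, where 6.2% of all genes were lower. Of 8 ependymal markers 3 were lower. Summed ependymal markers were 28.9 to 226 CPM in ablated and 77.2 to 328 CPM in control mice, and the part of dissection in this was not tested. The genes that ran most like the mean of the OPC genes over the 15 SVZ libraries, of 9337 compared, were Rpl10a (r = 0.888), Tprkb (0.813), Gstm1 (0.795), Pex19 (0.771) and Set (0.757).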

How the data were processed

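SVZ and striatum RNA of 15 mice was analysed, with groups taken from the sample labels. The authors deposited unnormalized whole-number counts, 1 value for each gene and library. SMART-Seq v4 was the kit for the SVZ and QuantSeq 3′ FWD that for the striatum, per the labels and methods, so a count is a read along the transcript in the SVZ and near its 3′ end in the striatum. Reads were trimmed with Trimmomatic (0.36 in the processing notes), aligned with STAR 2.5.3a to mm10 with Gencode M16 and counted with featureCounts; the strand setting is not given in the sources used here. Positions are from Gencode M21 on the same build.

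In each tissue, a gene entered the tests when 3 or more libraries exceeded 1 CPM. TMM scaling and the quasi-likelihood test of edgeR 4.0.16 (R 4.3.3) compared 5 ablated with 10 control mice, 4 groups in pairs, and, with an offset from the mean log2 CPM of 26 mature oligodendrocyte genes, the same mice on that scale. P-values were adjusted (Benjamini-Hochberg) over all genes of a tissue. CPM values are TMM-scaled, and log2 CPM has a prior count of 2. Exact permutation tests used log2 CPM. Each mouse is 1 replicate. Alternatives used DESeq2 1.42.0, limma-voom (limma 3.58.1), other scaling, controls and covariates, and omission of each mouse. Fits were tested on simulated data. Members and lists were chosen with earlier results of these data known. Named genes were all members, 7 fixed mature genes (another of that list counts in its totals and is not reported here) and any mature gene called, at most 4 genes with the smallest p of each other list, and the 5 genes most like the members; Trf, Car2, Mal and Gsn were added after their values were seen.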

Additional observations from a re-analysis of the deposited data

Results flagged for a closer look

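In all, 4 values of OPC genes stood apart from the rest of their group by Dixon's test, of 60 groups tested, where chance alone gives about 1 in 20. In the SVZ, Lhfpl3 was 33.3 CPM in T4 and at most 15.5 CPM in the other NestinTK+PBS+ mice. In the striatum, C1ql1 was 7.74 CPM in T2, against at most 4.57 CPM in the rest of that group. Ptprz1 was 135 CPM in the striatum of A2, against at most 117 CPM in the other NestinTK+GCV+ mice. Neu4 was 21.9 CPM in the striatum of T4, against at most 11.8 CPM in the other 9 controls.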

How the results depend on the processing

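No paired analysis was possible because the groups within a tissue hold different mice. Of the settings tried, 402 summary values kept within the limits of a like result and 37 moved. In the SVZ, the count of mature genes lower at an unadjusted p (4) was 7 with library totals, 2 with limma-voom, 13 and 2 when NestinTK-GCV+ or NestinTK+PBS+ mice alone served as controls and 1 with the mature level as a covariate, where their median was 0.13; leaving out single mice gave 4 to 7. The count of OPC genes higher (0) was 1 with limma-voom and with NestinTK-GCV+ controls, and 0 to 1 over the omissions; the count in the interaction (0) was 1 with DESeq2 size factors and 0 to 1 over the omissions. In the striatum, the count of OPC genes lower (2) was 1 with library totals and 1 to 2 over the omissions. At an adjusted p the count (0) was 1 with no filter and 1 with DESeq2, and 0 to 1 over the omissions. The count higher was 1 with NestinTK-GCV+ controls. On the scale of mature genes the count of 3 was 1 to 6 over the omissions, and in the interaction it was 0 to 2. The share of all genes higher on the scale of mature genes was 19.1% to 53.0% over the omissions.

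With the mature level as a covariate, striatum counts were 0 lower, 1 higher and 1 at an adjusted p, with medians of 0.22 for OPC genes and -0.0726 for mature genes and 4 mature genes lower. Turned signs are listed only for named genes with an unadjusted edgeR p under 0.05 in the main fit or in the setting. Signs of other genes could turn too and are not listed. With the covariate these were Olig1 (0.16), Olig2 (0.90), Bcas1 (0.0231), Mbp (0.00604) and Mog (0.28). The covariate is built from mature genes, and it moves with the ablation. When NestinTK-GCV+ mice alone served as controls, signs turned by the same rule for Olig2 (0.633) and Mog (0.0555). This setting has fewer controls, all GCV-treated. Otherwise the cause was not tested. Striatal counts of 10 to 35 per library for C1ql1 and 20 to 82 for Neu4 limit their precision, as does the spread between mice in the SVZ.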
